A study of Mus musculus with 12 samples.

Results

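Diacylglycerol kinases were followed at the transcript level in 4 sorted subsets of mouse CD4 T cells. The 6 genes described, Dgka, Dgkz, Dgkd, Dgke, Dgkg and Dgkh, were taken by name from a count table of 54532 entries, and all 6 were found. RNA was sequenced from 12 libraries, 3 per subset, made from CD4 T cells of combined spleen and lymph nodes of untreated wildtype C57BL/6 mice that carry a Foxp3-GFP reporter and a polyclonal receptor repertoire. Anergic cells, which have met antigen but no longer respond to it, were CD44high and FOXP3– and carried high CD73, high FR4 and NRP1. Treg (regulatory) cells were FOXP3+ CD25+. Teff (effector) cells were CD44high and FOXP3– with low CD73 and FR4. Naive cells were CD44low. The 4 subsets share the genotype, the absence of treatment and direct isolation without culture. No label ties the 3 libraries of a subset to separate animals. The p-values therefore refer to the spread between libraries, part or all of which may be technical.

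Stimulation of the T cell receptor activates phospholipase C, which splits a membrane phospholipid into inositol trisphosphate and diacylglycerol. Diacylglycerol recruits proteins with C1 domains to the membrane, among them RasGRP1, which switches on Ras and the ERK kinases, and protein kinase C theta. Diacylglycerol kinases end this signal by phosphorylating diacylglycerol to phosphatidic acid. DGK alpha, encoded by Dgka, and DGK zeta, encoded by Dgkz, are the best studied isoforms in T cells, where both are known as brakes on receptor signalling and have been linked to anergy. The family falls into 5 types by regulatory domains. DGK alpha and DGK gamma (Dgkg) are calcium-binding type I enzymes, DGK delta (Dgkd) and DGK eta (Dgkh) are type II enzymes with a pleckstrin homology domain, DGK epsilon (Dgke) is the type III enzyme, which prefers diacylglycerol with an arachidonoyl chain, and DGK zeta is a type IV enzyme with ankyrin repeats. A single enzyme, DGK theta (Dgkq), makes up type V.

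The promoters of 4 members are shown because Dgka, Dgkz and Dgkd carry most of the family's transcripts and differ in their pattern over the subsets, and because the Dgkg window held the only motif match. Each sequence runs 5′ to 3′ on the gene's strand from 250 bases before to 50 bases after a RefSeq start in GRCm38.p6. The windows are chr10:128743829-128744128 (minus strand) for Dgka, chr2:91963514-91963813 (minus) for Dgkz, chr1:87853037-87853336 (plus) for Dgkd and chr16:22657182-22657481 (minus) for Dgkg. Where a gene had several windows (4 for Dgka, 2 for Dgkz), the window with the most CpG dinucleotides is shown.
Dgka: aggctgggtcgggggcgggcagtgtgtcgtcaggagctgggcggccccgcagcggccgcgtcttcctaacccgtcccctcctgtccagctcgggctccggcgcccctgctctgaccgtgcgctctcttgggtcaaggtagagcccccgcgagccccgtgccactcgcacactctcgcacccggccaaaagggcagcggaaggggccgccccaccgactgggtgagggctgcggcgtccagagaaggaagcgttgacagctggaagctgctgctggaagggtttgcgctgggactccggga
Dgkz: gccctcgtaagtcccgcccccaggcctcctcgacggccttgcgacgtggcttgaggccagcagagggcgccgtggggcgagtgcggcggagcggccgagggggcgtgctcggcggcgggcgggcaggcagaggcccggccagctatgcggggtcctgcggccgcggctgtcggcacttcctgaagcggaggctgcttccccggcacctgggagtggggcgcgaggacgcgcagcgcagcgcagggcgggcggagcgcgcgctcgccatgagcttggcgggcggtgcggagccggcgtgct
Dgkd: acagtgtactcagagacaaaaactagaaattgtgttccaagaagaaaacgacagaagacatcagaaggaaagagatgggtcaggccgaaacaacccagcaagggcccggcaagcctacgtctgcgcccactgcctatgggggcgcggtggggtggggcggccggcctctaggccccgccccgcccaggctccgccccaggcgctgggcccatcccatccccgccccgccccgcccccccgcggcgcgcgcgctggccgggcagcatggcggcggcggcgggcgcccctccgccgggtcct
Dgkg: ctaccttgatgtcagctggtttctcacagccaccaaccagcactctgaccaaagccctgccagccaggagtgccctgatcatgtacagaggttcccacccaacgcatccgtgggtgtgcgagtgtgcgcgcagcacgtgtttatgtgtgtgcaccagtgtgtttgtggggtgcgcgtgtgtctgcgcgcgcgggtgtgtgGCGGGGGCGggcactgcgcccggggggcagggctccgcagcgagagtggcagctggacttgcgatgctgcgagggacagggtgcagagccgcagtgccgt
Capitals mark the only match found in the 12 windows of the 6 members to 3 motifs searched on both strands. These were GCGNGGGCG for EGR factors, TGTTTAC for FOXO factors and TGANTCA for AP-1, and they do not overlap one another in the windows shown. The EGR letters stood in 5.55% of 32851 windows of the same length over all genes, the FOXO letters in 3.65% and the AP-1 letters in 7.81%. The match in Dgkg is to the EGR letters and is a description, not a binding site. The windows shown held 70.7% G and C in Dgka, 77.7% in Dgkz, 70.3% in Dgkd and 65.0% in Dgkg, with 28, 43, 30 and 22 CpG dinucleotides.

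In GRCm38 the genes lie on 6 chromosomes. Dgka is at chr10:128720134-128744855 on the minus strand, with 4762 bases of exon in all. Dgkz is at chr2:91932824-91975864 (minus, 6270 bases of exon), and Dgkd is at chr1:87853287-87945180 (plus, 6850 bases). Dgke is at chr11:89035179-89066850 (minus, 8387 bases), Dgkg at chr16:22468461-22657221 (minus, 9255 bases) and Dgkh at chr14:78558750-78732776 (minus, 16975 bases). Their exons share little with annotated neighbours. The largest share was 4.82% of Dgkh exon, with Gm48998 on the same strand, whose counts came to 2.08% of those of Dgkh. The best counted neighbour was Usp40, a deubiquitinase gene whose exons meet 0.905% of Dgkd exon on the opposite strand, with 2184 counts over 12 libraries, or 13.1% of the Dgkd count. Whether the counting used strand is not given in the sources used here, and reads from these stretches cannot be assigned with certainty. No stretch of 50 exon bases was shared between members, and 0.377 to 4.58% of such stretches of each member occurred in another gene.

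Libraries held 6909035 to 9527897 counts, and 13393 genes passed the filter on low counts. Ribosomal and small RNA entries took 21.5 to 26.4% of counts, the most in Anergic library 3. Sort markers followed the gates, except that Foxp3 was higher in Anergic than in Teff libraries, both gated FOXP3–. Foxp3 averaged 543 CPM in Treg cells, against 18.2 in Anergic, 0.734 in Teff and 1.36 in Naive libraries, and Nt5e, which encodes CD73, averaged 256 CPM in Anergic cells and 57.5 CPM in Teff cells. T cell markers were high in every subset, with a summed level of 3725 CPM in Anergic, 2194 in Treg, 2535 in Teff and 2634 in Naive libraries over 8 genes. Levels are given as CPM, which are counts relative to library size scaled by the TMM method, and RPKM is the same value divided by the kilobases of exon. In these bulk libraries, fewer cells with a transcript and less of it per cell cannot be told apart.

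Dgka and Dgkz were the most abundant members in all 4 subsets on the length-scaled level. Dgka averaged 136 RPKM in Anergic, 156 in Treg, 134 in Teff and 248 in Naive libraries. Dgkz averaged 103 RPKM in Anergic, 74.8 in Treg, 66.2 in Teff and 66.8 in Naive libraries. Dgkd came next, at 14.4 RPKM in Anergic, 25.9 in Treg, 22.8 in Teff and 38.3 in Naive libraries. The remaining members were far lower. Dgke lay between 2.25 RPKM in Anergic and 3.44 in Naive cells, Dgkh between 0.673 in Naive and 1.22 in Treg cells, and Dgkg between 0.0243 in Naive and 0.395 in Treg cells. The order Dgka, Dgkz, Dgkd, Dgke, Dgkh, Dgkg held for the subset means in each of the 4 subsets, and no library of a member overlapped the next member in the order within a subset.

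**Figure D1:**
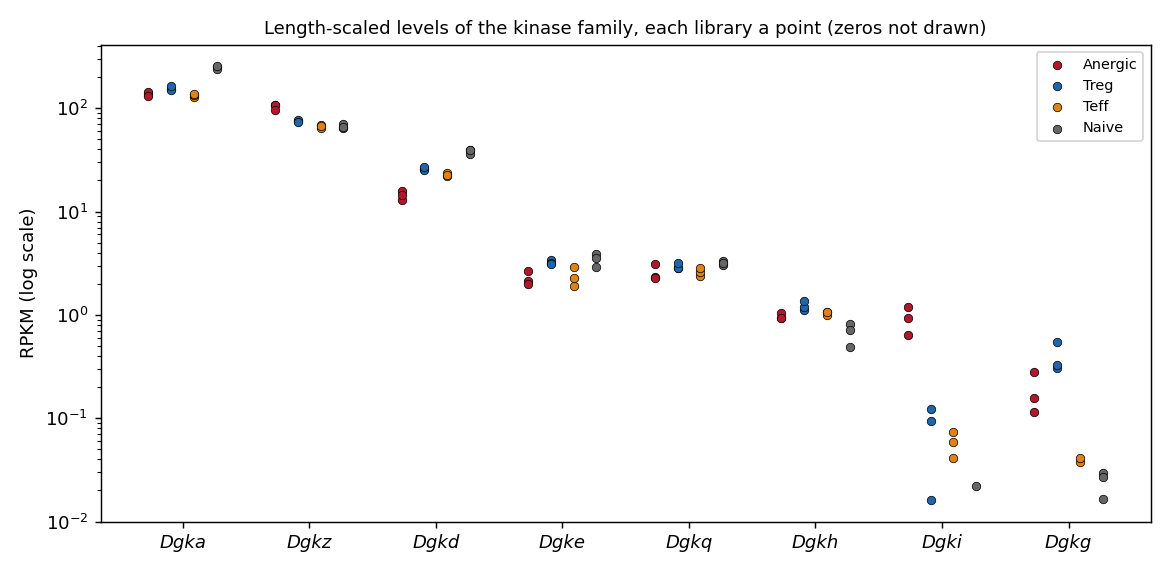
Length-scaled level (RPKM, log axis) of 8 diacylglycerol kinase genes, each point a library, with Anergic, Treg, Teff and Naive libraries side by side. Dgka, Dgkz and Dgkd stand above the rest in every subset, Dgki is seen mainly in Anergic libraries, and libraries at 0 are not drawn.

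All 10 mammalian kinases of the family together came to 260.3 ± 12.4 RPKM in Anergic, 265 ± 6.04 in Treg, 229 ± 4.92 in Teff and 360.1 ± 6.91 in Naive libraries (SD, n = 3). Naive libraries, at 353 to 366 RPKM, lay above all others, while Anergic libraries (247 to 271 RPKM) overlapped Treg libraries (259.8 to 271 RPKM). The shares of the members in this sum also differed between subsets. Dgka gave 52.2 ± 0.624% of it in Anergic, 58.9 ± 1.19% in Treg, 58.5 ± 1.27% in Teff and 68.8 ± 0.890% in Naive libraries (SD, n = 3). Dgkz gave 39.6 ± 0.772% in Anergic, 28.3 ± 1.23% in Treg, 28.9 ± 1.23% in Teff and 18.6 ± 1.09% in Naive libraries (SD, n = 3). Dgkd gave 5.53 ± 0.539% in Anergic, 9.79 ± 0.0510% in Treg, 9.97 ± 0.352% in Teff and 10.6 ± 0.271% in Naive libraries (SD, n = 3).

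Dgka, the calcium-responsive kinase that acts on receptor-induced diacylglycerol, was highest in Naive cells and lower in all 3 other subsets. It measured 647, 678 and 618 CPM in the Anergic libraries, 733, 717 and 779 CPM in the Treg libraries, 609.8, 642 and 659.9 CPM in the Teff libraries and 1192, 1138 and 1209.9 CPM in the Naive libraries. Every Naive library lay far above every other library, the Treg libraries formed the next group, and the Anergic and Teff libraries overlapped. Tested with edgeR's quasi-likelihood F test over all genes, Dgka was 1.82-fold lower in Anergic than in Naive cells (log2 fold change -0.87 ± 0.0624 SE, adjusted p = 3.65e-11). Dgka was 1.59-fold lower in Treg (log2 fold change -0.67 ± 0.0621 SE, adjusted p = 5.41e-09) and 1.85-fold lower in Teff than in Naive cells (log2 fold change -0.89 ± 0.0624 SE, adjusted p = 3.64e-11). Between Anergic and Teff cells no difference was called (edgeR adjusted p = 0.825), and the 95% interval of the log2 difference ran from -0.11 to 0.15. Dgka was 1.15-fold lower in Anergic than in Treg cells (log2 fold change -0.20, edgeR adjusted p = 0.0166), a call lost without Anergic library 3 (adjusted p = 0.0642) or Treg library 3 (adjusted p = 0.118). It was 1.17-fold higher in Treg than in Teff cells (log2 fold change 0.22, edgeR adjusted p = 0.00834), a call lost without Teff library 1 (adjusted p = 0.0517) or Treg library 3 (adjusted p = 0.0713).

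Dgkz, the kinase with ankyrin repeats that limits Ras activation, was highest in Anergic cells. The Anergic libraries had 668, 667 and 603 CPM, the Treg libraries 473, 477 and 458 CPM, the Teff libraries 427, 399 and 418 CPM and the Naive libraries 406, 438 and 413 CPM. The lowest Anergic library stood above every library of the other subsets, and the Teff and Naive libraries overlapped. Dgkz was 1.56-fold higher in Anergic than in Teff cells (log2 fold change 0.64 ± 0.0622 SE, edgeR adjusted p = 1.84e-08). The Anergic level was 1.38-fold higher than that of Treg cells (log2 fold change 0.46 ± 0.0619 SE, edgeR adjusted p = 2.39e-06) and 1.54-fold higher than that of Naive cells (log2 fold change 0.63 ± 0.0623 SE, edgeR adjusted p = 1.1e-08). The summed level of the 8 T cell markers was also highest in Anergic cells, though lowest in Treg cells, at 3567 to 3939 CPM in Anergic, 2096 to 2255 in Treg, 2340 to 2645 in Teff and 2423 to 2777 CPM in Naive libraries, with none of the 8 at 0, and its part in the Dgkz result was not tested. Smaller differences were called for Treg over Naive cells (1.12-fold, log2 fold change 0.16, edgeR adjusted p = 0.0461) and for Treg over Teff cells (1.13-fold, log2 fold change 0.18, edgeR adjusted p = 0.0333). The Treg over Naive call was lost without 8 of the 12 libraries in turn and the Treg over Teff call without 5 of 12. Between Teff and Naive cells no difference was called (edgeR adjusted p = 0.889), with a 95% interval of -0.14 to 0.12 on the log2 scale.

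**Figure D2:**
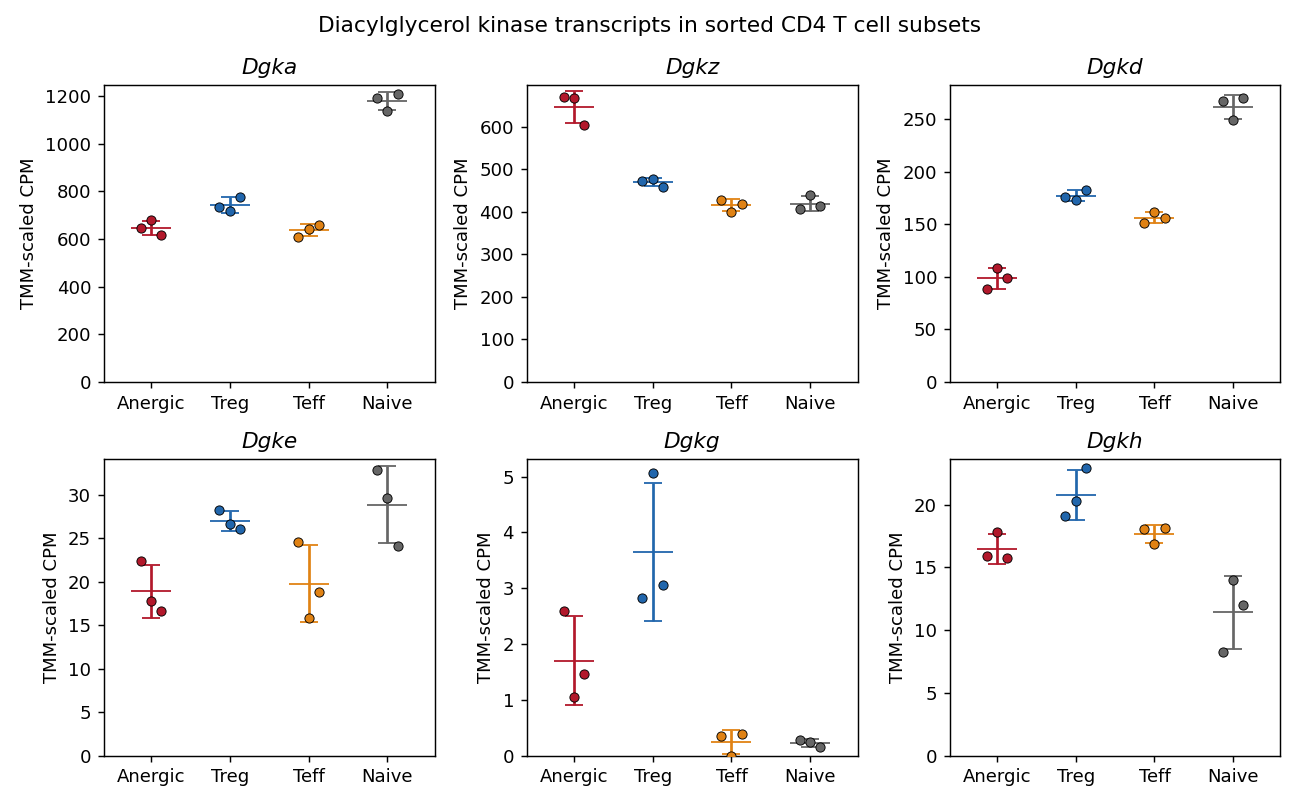
TMM-scaled CPM of the 6 members, each point a library, with the mean and SD of 3 libraries per subset, drawn in the order Anergic, Treg, Teff, Naive. Dgka and Dgkd are highest in Naive cells, Dgkz is highest in Anergic cells at 603 to 668 CPM, and Dgkg lies under 1 CPM in all Teff and Naive libraries.

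Dgkd, the type II kinase known to act on protein kinase C and receptor trafficking in other tissues, was lowest in Anergic cells and highest in Naive cells. Its level was 88.6, 108 and 98.9 CPM in Anergic libraries, 176, 173 and 183 CPM in Treg libraries, 151, 162 and 156 CPM in Teff libraries and 267, 249 and 270.0 CPM in Naive libraries. The 4 subsets did not overlap, and the order from low to high was Anergic, Teff, Treg, Naive. Dgkd was 1.59-fold lower in Anergic than in Teff cells (log2 fold change -0.67 ± 0.0709 SE, edgeR adjusted p = 7.88e-08). The Anergic level was 1.80-fold lower than that of Treg cells (log2 fold change -0.85 ± 0.0705 SE, edgeR adjusted p = 9.93e-10) and 2.66-fold lower than that of Naive cells (log2 fold change -1.41 ± 0.0705 SE, edgeR adjusted p = 3.89e-14). Treg cells were 1.48-fold (edgeR adjusted p = 3.91e-07) and Teff cells 1.68-fold (edgeR adjusted p = 4.5e-09) below Naive cells. The difference between Treg and Teff cells was 1.14-fold, higher in Treg cells (log2 fold change 0.18, edgeR adjusted p = 0.0476), and was lost without 10 of the 12 libraries in turn. Usp40, whose exons meet 0.905% of Dgkd exon, had 578 counts in Anergic, 595 in Treg, 453 in Teff and 558 in Naive libraries. These are summed over the whole Usp40 gene, and the part from the shared stretch was not tested. Summed Dgkd counts were 2416 in Anergic, 4668 in Treg, 3833 in Teff and 5727 in Naive libraries.

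Dgkh, the other type II kinase, was lowest in Naive cells. It measured 15.9, 17.8 and 15.7 CPM in Anergic libraries, 19.1, 20.3 and 22.9 CPM in Treg libraries, 18.1, 16.9 and 18.1 CPM in Teff libraries and 8.27, 14.003 and 11.99 CPM in Naive libraries. All Naive libraries were below all others, and the Anergic and Teff libraries overlapped. Dgkh was 1.44-fold higher in Anergic than in Naive cells (log2 fold change 0.52 ± 0.153 SE, edgeR adjusted p = 0.00698), a call lost without Naive library 1 (adjusted p = 0.0679). Dgkh was 1.81-fold higher in Treg (log2 fold change 0.85 ± 0.149 SE, edgeR adjusted p = 6.6e-05) and 1.54-fold higher in Teff than in Naive cells (log2 fold change 0.62 ± 0.152 SE, edgeR adjusted p = 0.0022). The 3 comparisons among Anergic, Treg and Teff cells passed no threshold, although the Treg libraries lay above both. Their adjusted p-values by edgeR were 0.663 for Anergic against Teff, 0.0769 for Anergic against Treg and 0.239 for Treg against Teff cells.

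Dgke, which acts in the phosphatidylinositol cycle, was lower in Anergic than in Treg and Naive cells. Its level was 22.3, 17.7 and 16.6 CPM in Anergic libraries, 28.3, 26.6 and 26.1 CPM in Treg libraries, 24.6, 15.9 and 18.9 CPM in Teff libraries and 32.8, 29.6 and 24.1 CPM in Naive libraries. Anergic libraries lay below all Treg and Naive libraries, and the Teff range reached into that of Naive cells. Dgke was 1.43-fold lower in Anergic than in Treg cells (log2 fold change -0.51 ± 0.142 SE, edgeR adjusted p = 0.00724) and 1.53-fold lower than in Naive cells (log2 fold change -0.61 ± 0.144 SE, edgeR adjusted p = 0.00117). It was 1.46-fold lower in Teff than in Naive cells (edgeR adjusted p = 0.00424) and 1.36-fold higher in Treg than in Teff cells (edgeR adjusted p = 0.019), the last being lost without Treg library 1, Teff library 2 or Teff library 3. No difference was called for Anergic against Teff cells, with a 95% interval of -0.37 to 0.24 on the log2 scale, or for Treg against Naive cells, with an interval of -0.38 to 0.19.

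Dgkg, the other calcium-binding type I kinase, best known from brain, was detected mainly in Treg and Anergic cells, and at very low counts. The Anergic libraries held 22, 9 and 11 reads, the Treg libraries 28, 40 and 26, the Teff libraries 3, 0 and 3 and the Naive libraries 2, 2 and 1. These correspond to 1.06 to 2.59 CPM in Anergic, 2.83 to 5.07 CPM in Treg, 0 to 0.382 CPM in Teff and 0.152 to 0.276 CPM in Naive libraries, with no overlap of Anergic or Treg with Teff or Naive libraries. The gene passed the count filter only through 3 Treg and 2 Anergic libraries, so it had to differ from the subsets with few reads. The fitted difference was 6.63-fold for Anergic over Teff cells (edgeR adjusted p = 0.00165) and 7.08-fold for Anergic over Naive cells (edgeR adjusted p = 0.000906). For Treg cells the log2 fold change was 3.81 ± 0.559 SE over Teff (edgeR adjusted p = 7.95e-06) and 3.90 ± 0.583 SE over Naive cells (edgeR adjusted p = 9e-06). The depth-scaled ratio of summed reads was 14.6 for Treg over Teff cells and 15.7 for Treg over Naive cells, with exact 95% intervals for counting error of 6.47 to 40.8 and 6.48 to 49.4. Anergic cells were lower than Treg cells (log2 fold change -1.08 ± 0.402 SE, edgeR adjusted p = 0.0442), but the call was lost without 8 of the 12 libraries in turn. The summed level of 7 B cell markers was also highest in Treg cells, at 411 to 502 CPM, against 195 to 257 in Anergic, 171 to 181 in Teff and 198 to 227 CPM in Naive libraries. Of the 7, 3 were highest in Treg cells, namely Ighm (443 CPM in Treg cells), Cd79b (5.97 CPM in Treg, 1.87 in Anergic, 0.739 in Teff and 0.639 in Naive libraries) and Ighd (5.42 CPM in Treg, 3.08 in Anergic, 0.413 in Teff and 1.18 in Naive libraries). Ms4a1 was at 0.253 CPM in Treg cells, and none of the 7 was at 0 in every library of a subset. The part of B cell RNA in the Dgkg level was not tested.

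In Anergic against Teff cells, the comparison of FOXP3– CD44high cells with and without the anergy gate, Dgkz and Dgkg were higher, Dgkd was lower, and Dgka, Dgke and Dgkh were not called. These are 3 of 6 members, where 26.6% of the genes tested were called (13.9% higher and 12.7% lower). The split between directions depends on the scaling, with 1864 genes higher and 1702 lower under TMM and 1218 higher and 2276 lower when scaled by total counts. The median log2 fold change of the 6 was -0.02, against 0.00 over all genes tested. Over 7 markers of NK and innate-like T cells the summed level was 43.2 to 48.2 CPM in Anergic libraries and 182 to 247 CPM in Teff libraries, with the mean of 6 of the 7 higher in Teff libraries. Zbtb16 averaged 23.1 CPM in Anergic and 99.9 CPM in Teff cells, Klrk1 0.441 CPM in Anergic and 41.1 CPM in Teff cells and Klrb1c 4.75 CPM in Anergic and 38.9 CPM in Teff cells, Ncr1 was at 0 in Anergic and at 0.0413 CPM in Teff cells, and their part in these differences was not tested. In Anergic against Treg cells, Dgkz was higher, Dgka, Dgkd, Dgke and Dgkg were lower, and Dgkh was not called. These are 5 of 6 members, where 31% of genes were called (15.6% higher and 15.3% lower), and the median of the 6 was -0.42, against 0.00 over all genes. Here TMM gave 2096 genes higher and 2054 lower, and total counts gave 1324 higher and 3027 lower. In Anergic against Naive cells, Dgkz, Dgkg and Dgkh were higher and Dgka, Dgkd and Dgke were lower, so 6 of 6 were called, where 46.2% of genes were (25% higher and 21.3% lower). The median of the 6 was -0.04, against 0.01 over all genes. These 3 comparisons share the Anergic libraries, and each count includes Dgkg, which passed the filter only through Treg and Anergic cells. Without Anergic library 3 or without Treg library 3, 3 members were called in Anergic against Treg cells.

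In Treg against Naive and Treg against Teff cells the counts again include Dgkg, whose difference there is fixed by how it passed the filter. In Teff against Naive cells Dgkg was not called (edgeR adjusted p = 0.951). In Treg against Naive cells, Dgkz, Dgkg and Dgkh were higher and Dgka and Dgkd lower, 5 of 6 members, where 32.8% of genes were called (19% higher and 13.9% lower). Under TMM 2538 genes were higher and 1858 lower, and under total counts 2925 were higher and 1126 lower. In Teff against Naive cells, Dgkh was higher and Dgka, Dgkd and Dgke lower, 4 of 6 members, where 34.9% were called (19.2% higher and 15.7% lower). In Treg against Teff cells, Dgka, Dgkz, Dgkd, Dgke and Dgkg were higher, 5 of 6 members, where 29.1% were called (15% higher and 14.1% lower). Apart from Dgkg, the differences between Treg and Teff cells were small, at 1.13-fold to 1.36-fold. Without the filter on low counts, or with the size factors of DESeq2, 3 members were called in Treg against Teff cells, and the same number without Teff library 1 or Treg library 2. Without Teff library 2, Teff library 3, Treg library 1 or Treg library 3 in turn, 2 were called. The median log2 fold change of the 6 members was 0.03 in Treg against Naive, -0.28 in Teff against Naive and 0.23 in Treg against Teff cells, against 0.00, 0.01 and 0.01 over all genes tested. Over the 4 subsets together, all 6 members differed in edgeR's F test of 3 contrasts, where 56.1% of genes did, and Dgkg, kept through the subsets where it is high, had to. Adjusted p was lowest for Dgkd (3.01e-13) and Dgka (8.33e-12) and highest for Dgke (0.000988).

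**Figure D3:**
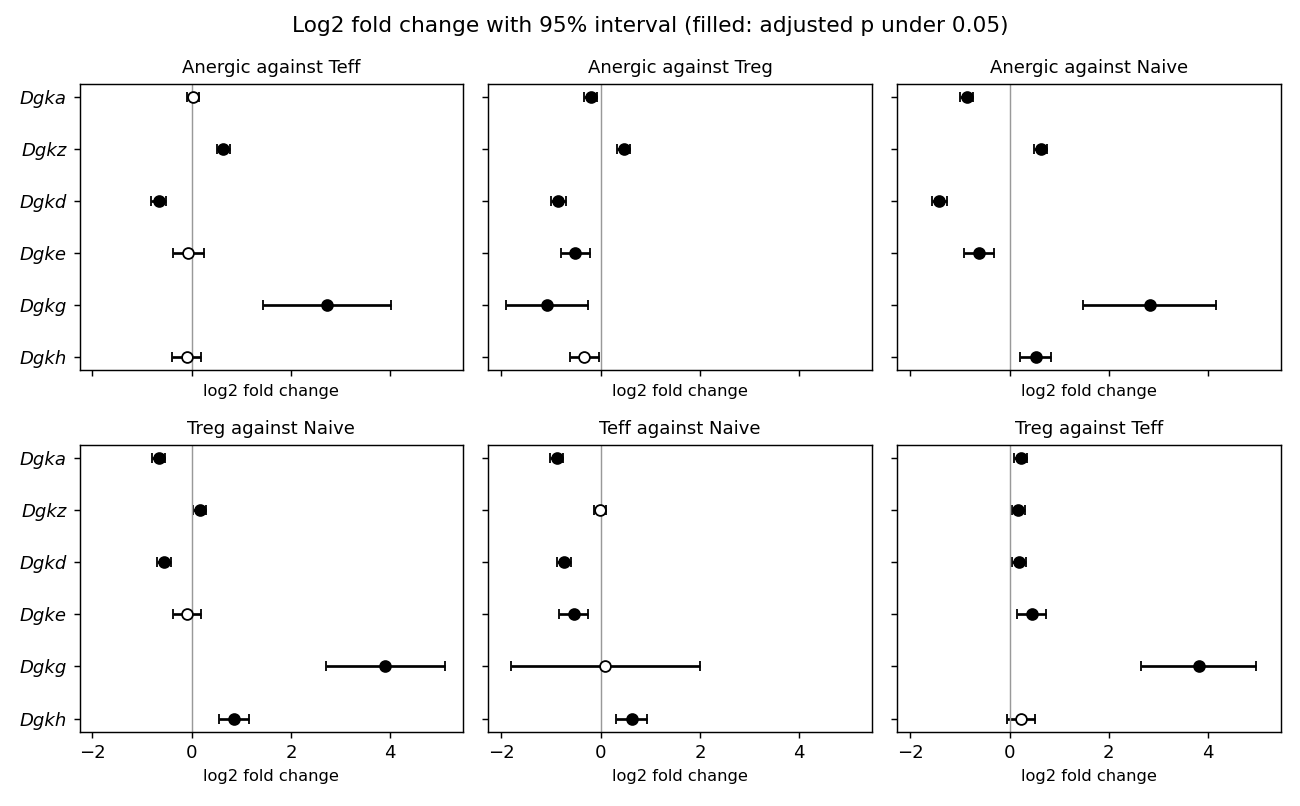
Log2 fold change of each member with its 95% interval from edgeR in 6 comparisons, with positive values higher in the subset named before the word against and filled points at adjusted p under 0.05. In Anergic against Naive cells Dgkd lies lowest at -1.41 and Dgka at -0.87, while Dgkz lies at 0.63 in the same panel.

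The balance between the 2 main T cell isoforms shifted across the subsets. Per kilobase of exon, the log2 ratio of Dgka to Dgkz within a library was 0.35, 0.42 and 0.43 in Anergic cells, 1.03, 0.99 and 1.16 in Treg cells, 0.91, 1.08 and 1.05 in Teff cells and 1.95, 1.77 and 1.95 in Naive cells. Anergic libraries were lowest, Naive libraries were highest, and Treg and Teff libraries overlapped between them. The mean log2 ratio was 0.40 ± 0.0451 in Anergic, 1.06 ± 0.0923 in Treg, 1.02 ± 0.0921 in Teff and 1.89 ± 0.102 in Naive libraries (SD, n = 3). This corresponds to 1.32 Dgka transcripts per Dgkz transcript in Anergic, 2.08 in Treg, 2.02 in Teff and 3.71 in Naive libraries, as length-scaled estimates. The ratio needs no scaling between libraries. An exact permutation test of the F statistic over 369600 assignments of libraries to subsets gave p = 0.00039. For pairs of subsets, the exact two-sided permutation test gave p = 0.1, the smallest that 3 against 3 libraries allow, in 5 of 6 pairs (adjusted over the 6 pairs 0.12), and p = 0.6 for Treg against Teff cells.

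**Figure D4:**
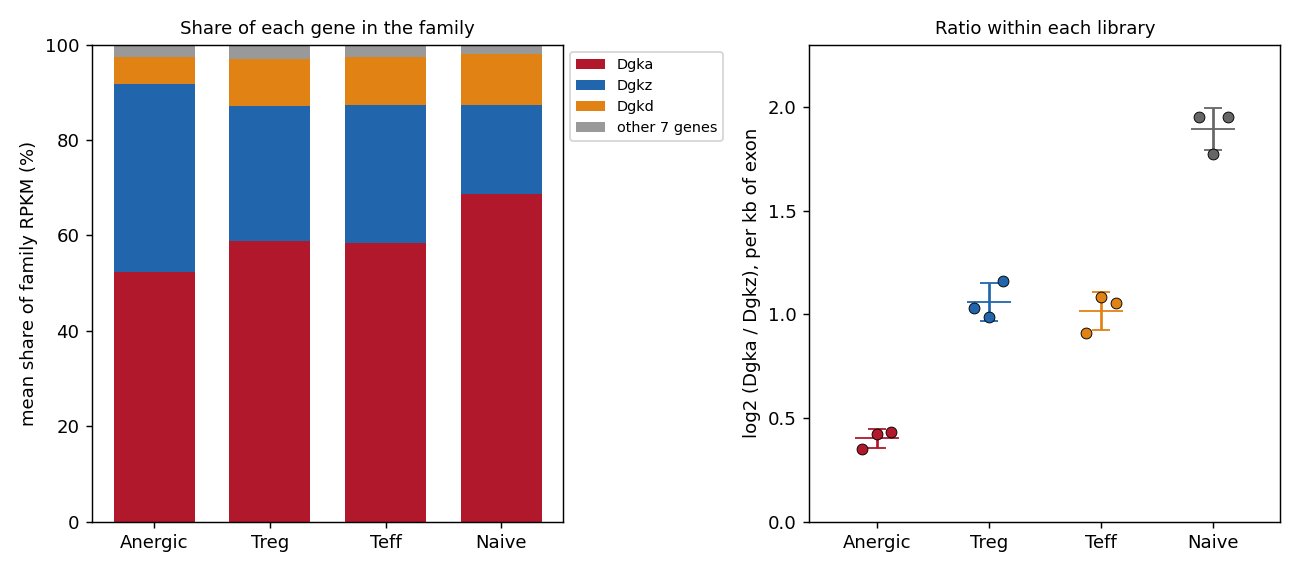
Left, the mean share of Dgka, Dgkz, Dgkd and the other 7 genes in the summed RPKM of the family by subset. Right, the log2 ratio of Dgka to Dgkz per kilobase of exon, each point a library, with mean and SD (n = 3), which is lowest in Anergic libraries (0.35 to 0.43) and highest in Naive libraries (1.77 to 1.95).

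Among the 4 mammalian kinases of the family that are not members, Dgki, encoding DGK iota, the type IV relative of DGK zeta, was detected mainly in Anergic libraries. It had 63, 34 and 44 reads in Anergic libraries, 1, 6 and 5 in Treg, 4, 3 and 2 in Teff and 1, 0 and 0 in Naive libraries. The Anergic libraries lay above all others, and the difference was 15.1-fold against Teff (edgeR adjusted p = 9.4e-07) and 12.1-fold against Treg cells (edgeR adjusted p = 1.3e-06). Dgki reached the level of the count filter in the Anergic libraries alone, so it had to differ from the other subsets. Against Naive cells the ratio of 141 to 1 reads, scaled for depth, was 126, with an exact 95% counting interval of 22.2 to 5009. Its length-scaled level in Anergic cells, 0.922 RPKM, was close to that of Dgkh (0.971 RPKM) and far below Dgkz (103 RPKM). Dgkq lay at 16.4 to 23.7 CPM over all 12 libraries and was not called over the 4 subsets (edgeR F test of 3 contrasts, adjusted p = 0.112). Its log2 fold change in Anergic against Naive cells was -0.30, with a 95% interval of -0.56 to -0.03 (edgeR adjusted p = 0.0606), and it was called there without Anergic library 1 (-0.47, adjusted p = 0.00434) and with a replicate block (-0.30, adjusted p = 0.0485). Dgkb had 3 reads in Anergic and 1 in Treg libraries and none elsewhere, and Dgkk was listed at 0 in every library. Dgkeos, an opposite strand transcript at the Dgke locus, had 5 reads in all.

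The genes around the kinases in the diacylglycerol pathway moved in both directions in Anergic cells, against a background over all genes of 26.6% called against Teff, 31% against Treg and 46.2% against Naive cells. Among phospholipase C genes, the makers of diacylglycerol, 4 of 12 were tested and 1 rose and 1 fell in Anergic relative to Teff cells, with a median log2 fold change of 0.00. Plcb4 averaged 39.3 ± 5.49 CPM in Anergic and 18.03 ± 3.11 CPM in Teff cells (SD, n = 3), a 2.18-fold difference (edgeR adjusted p = 1.51e-07). Plcb2 averaged 86.4 ± 2.30 CPM in Anergic and 117 ± 10.5 CPM in Teff cells, 1.36-fold lower (edgeR adjusted p = 3.49e-05). Plcg1, the isoform activated by the T cell receptor, was not called, at 402 ± 22.2 CPM in Anergic and 405 ± 12.7 CPM in Teff cells (SD, n = 3). Against Treg cells (31% of all genes called) 2 of the 4 were higher and 2 lower, and against Naive cells (46.2%) 2 were higher and 1 lower.

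Of the proteins that bind diacylglycerol through C1 domains, 13 of 19 were tested, and 3 rose and 7 fell in Anergic relative to Teff cells, with a median of -0.21. Rasgrp1, the diacylglycerol-activated Ras exchange factor and the main target of signal termination by these kinases, averaged 172 ± 26.1 CPM in Anergic, 284 ± 14.6 in Treg, 302 ± 10.4 in Teff and 379.5 ± 13.2 CPM in Naive libraries (SD, n = 3). It was 1.75-fold lower in Anergic than in Teff cells (edgeR adjusted p = 3.35e-08), 1.65-fold lower than in Treg cells (edgeR adjusted p = 1.73e-07) and 2.20-fold lower than in Naive cells (edgeR adjusted p = 3.44e-11). Prkd3, encoding protein kinase D3, was 5.39-fold lower in Anergic than in Teff cells, at 15.8 ± 5.17 CPM in Anergic and 85.0 ± 11.7 CPM in Teff cells (SD, n = 3; edgeR adjusted p = 1.61e-12). Prkca, encoding the classical isoform protein kinase C alpha, went the other way, at 258 ± 17.7 CPM in Anergic and 89.8 ± 13.9 CPM in Teff cells (2.87-fold higher, edgeR adjusted p = 1.78e-12). Prkch, encoding protein kinase C eta, was 1.39-fold higher (edgeR adjusted p = 5.74e-05). Against Treg cells 4 of the 13 were higher and 6 lower (median -0.28), and against Naive cells 5 were higher and 5 lower (median -0.11). Each count of higher genes includes Chn1, at 4.49 CPM in Anergic, 0.0674 in Treg, 0.480 in Teff and 0 in Naive libraries. Chn1 passed the count filter through Anergic libraries alone, so it had to differ. Each count of lower genes includes Rasgrp4, which averaged 0.898 CPM in Anergic cells and passed the filter through the other subsets. Rasgrp2, Prkd1 and Unc13c were listed at 0 in all libraries. For Rasgrp2, which T cells are known to express, the 0 is not read as absence, and its source was not tested.

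Other enzymes of diacylglycerol and phosphatidic acid gave 16 tested genes of 22, with 3 higher and 3 lower in Anergic relative to Teff cells and a median of -0.06. Pld2, a phospholipase D that makes phosphatidic acid from phosphatidylcholine, averaged 9.77 ± 3.04 CPM in Anergic and 4.44 ± 0.130 CPM in Teff cells (SD, n = 3), 2.20-fold higher (edgeR adjusted p = 0.000614). Sgms1, the sphingomyelin synthase that releases diacylglycerol, averaged 36.9 ± 2.22 CPM in Anergic and 55.7 ± 3.73 CPM in Teff cells, 1.51-fold lower (edgeR adjusted p = 1.15e-05). The acyltransferase Agpat4 was 1.76-fold higher (edgeR adjusted p = 0.0233) and Agpat5 1.47-fold lower (edgeR adjusted p = 0.0114). Against Treg cells 3 were higher and 3 lower, and against Naive cells 7 were higher and 4 lower. These counts include genes that passed the count filter through the subsets where they are high, so their differences were partly fixed by it. Plpp1 averaged 1.47 CPM in Anergic, 0.608 in Teff and 0 in Naive libraries. Pld1 averaged 1.63 CPM in Anergic, 0.272 in Treg and 0.0460 in Naive libraries. Dgat2 averaged 3.58 CPM in Treg and 0.128 in Anergic libraries.

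All 18 genes of the Ras and ERK cascade were tested, and 4 rose and 2 fell in Anergic relative to Teff cells, with a median of 0.08. Ksr1, a scaffold of the cascade, was 1.25-fold higher (edgeR adjusted p = 0.000704). Rasa3, a GTPase-activating protein that turns off Ras and Rap, averaged 216 ± 14.8 CPM in Anergic and 309 ± 8.01 CPM in Teff cells (SD, n = 3), 1.43-fold lower (edgeR adjusted p = 1.11e-06). Map2k2, encoding the ERK kinase MEK2, was 1.18-fold lower (edgeR adjusted p = 0.0211). Against Treg cells (31% of all genes called) 7 of the 18 were higher and 2 lower, and against Naive cells (46.2%) 8 were higher and 4 lower.

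Transcripts induced through Ras and ERK gave 17 tested genes of 19, and 6 rose and 5 fell in Anergic relative to Teff cells, with a median of 0.07. Egr3, an early growth response factor tied to anergy, averaged 64.7 ± 0.491 CPM in Anergic and 24.3 ± 2.00 CPM in Teff cells (SD, n = 3), 2.66-fold higher (edgeR adjusted p = 1.31e-11). Spry1, a feedback inhibitor of the ERK pathway, was 4.52-fold higher (edgeR adjusted p = 7.44e-11). Dusp5, a phosphatase of nuclear ERK, averaged 22.6 ± 2.80 CPM in Anergic and 63.1 ± 8.07 CPM in Teff cells, 2.79-fold lower (edgeR adjusted p = 7.34e-11). The immediate early gene Ier2 was 1.38-fold lower (edgeR adjusted p = 3.25e-06). The 5 that fell include Spry2, at 3.44 CPM in Teff and 0.770 in Anergic libraries. Spry2 passed the count filter through Teff libraries, so its lower level in Anergic cells was fixed by the filter. Against Treg cells 5 were higher and 7 lower, and against Naive cells 8 were higher and 7 lower.

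**Figure D5:**
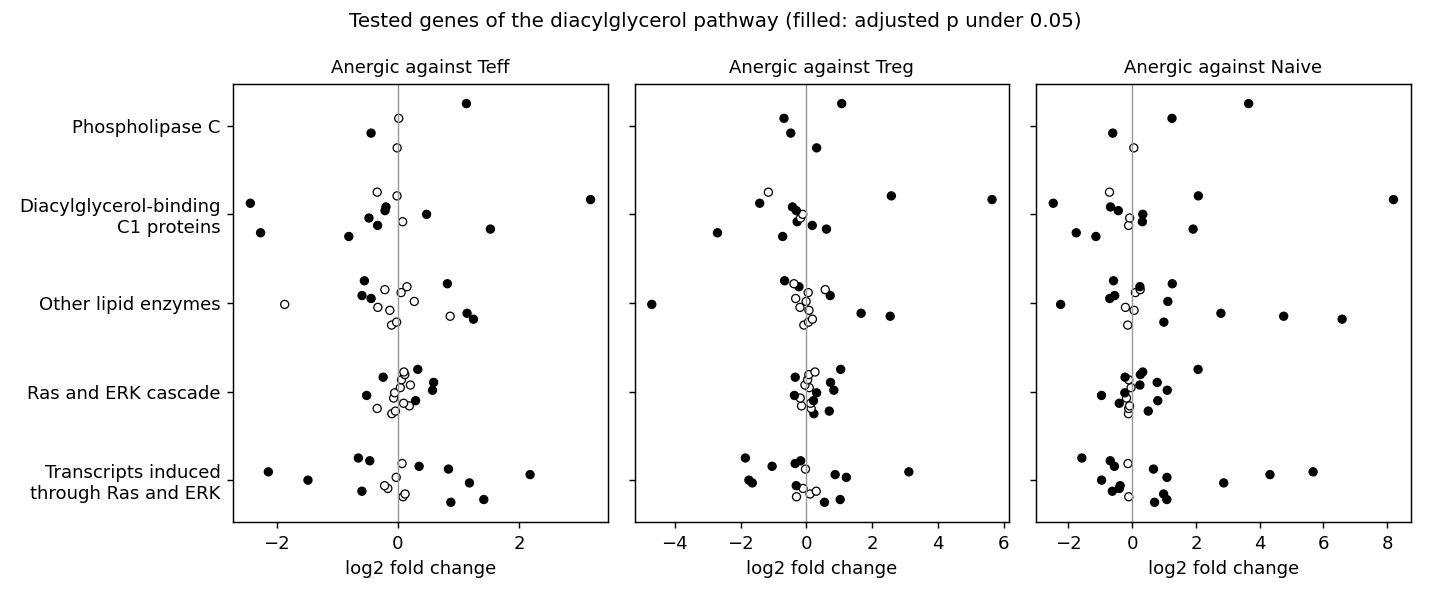
Log2 fold change of every tested gene in 5 lists of the diacylglycerol pathway for Anergic against Teff, Treg and Naive cells, each point a gene and filled points at adjusted p under 0.05. Each list has genes on both sides of 0 in each panel, and the points farthest to the right in the Naive panel include genes at 0 in Naive cells, whose fitted values depend on the prior count.

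Of 4 factors reported to regulate Dgka or Dgkz transcription, 3 were tested, and all were called in the comparisons of Anergic with Teff, Treg and Naive cells, where 26.6%, 31% and 46.2% of all genes were. Egr3 is given above. Foxo1, a factor active in resting T cells and reported to drive Dgka, averaged 178 ± 10.2 CPM in Anergic, 338 ± 5.82 in Treg, 209 ± 5.00 in Teff and 385 ± 20.3 CPM in Naive libraries (SD, n = 3). It was 1.18-fold lower in Anergic than in Teff cells (edgeR adjusted p = 0.00653), 1.90-fold lower than in Treg cells (edgeR adjusted p = 2.87e-11) and 2.17-fold lower than in Naive cells (edgeR adjusted p = 4.55e-13). Foxo3 averaged 85.5 ± 8.36 CPM in Anergic, 108 ± 6.49 in Treg, 135 ± 16.2 in Teff and 107 ± 5.67 CPM in Naive libraries (SD, n = 3) and was 1.58-fold lower in Anergic than in Teff cells (edgeR adjusted p = 1.44e-06). Egr2, known from CD4 T cells, was listed at 0 in all 12 libraries. This 0 is not read as absence of the transcript, and its source was not tested.

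Among PDZ proteins reported to bind DGK zeta, 3 of 5 were tested. In Anergic relative to Teff cells 1 was higher and 1 lower, where 26.6% of all genes were called. Snx27, a sorting nexin, averaged 37.1 ± 1.03 CPM in Anergic and 28.1 ± 3.70 CPM in Teff cells (SD, n = 3), 1.32-fold higher (edgeR adjusted p = 0.00224). Sntb2, a syntrophin, averaged 48.8 ± 4.20 CPM in Anergic, 13.9 ± 2.02 in Treg, 87.9 ± 5.72 in Teff and 14.3 ± 0.808 CPM in Naive libraries, so that Anergic cells were 1.80-fold below Teff (edgeR adjusted p = 3.45e-08) and 3.54-fold above Treg cells (edgeR adjusted p = 1.17e-12). Against Treg cells (31% of all genes called) 2 of the 3 were higher, and against Naive cells (46.2%) 2 were higher.

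The members did not share a single pattern over the libraries. Over the 12 libraries, Pearson's r of log2 CPM was 0.84 between Dgka and Dgkd and -0.83 between Dgkz and Dgkd, and -0.44 between Dgka and Dgkz. Libraries of a subset share their cells' state and are not independent points, so these are descriptions. Among 7144 protein-coding genes averaging 10 CPM or more, the pattern most like that of Dgka was that of Pik3ip1 (r = 0.975), which encodes an inhibitor of phosphoinositide 3-kinase, followed by Kdm7a (0.975) and Ttyh3 (0.974). For Dgkz it was Hsd17b11 (0.974), Notch1 (0.970) and Ece1 (0.970). Notch1 averaged 428 CPM in Anergic, 318 in Treg, 284 in Teff and 294 CPM in Naive libraries. For Dgkd it was Impdh1 (0.990), an enzyme of guanine nucleotide synthesis, Gpr18 (0.987) and Pdlim1 (0.986). The lower members gave Jmy (0.941) for Dgke, Adamts6 (0.960) for Dgkg and Phlda1 (0.941) for Dgkh.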

How the data were processed

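RNA of 12 libraries was prepared with QIAGEN RNeasy and the Takara SMARTer Pico kit for stranded total RNA, per the labels' protocols. The authors deposited raw read counts per gene, made with Trimmomatic, HISAT2, SAMtools and featureCounts, per the series design text. The genome was GRCm38 (mm10), per the submitters' processing notes, and the annotation is not given in the sources used here. Members and gene lists were chosen with earlier results of these data known. Counts were tested with edgeR 4.0.16 (R 4.3.3): TMM scaling, filterByExpr (10 counts, about 1.23 CPM), a model of subset means over 12 libraries, the quasi-likelihood F test, and Benjamini-Hochberg adjustment over 13393 genes at 0.05. RPKM used the union of exons in GENCODE M21. All members were named, and up to 2 higher and 2 lower genes per list by smallest adjusted p in Anergic against Teff. Likeness left out predicted, ribosomal and non-coding names. Scaling by total counts shifted the median of all genes by -0.13 in Anergic against Treg. Alternatives were DESeq2 1.42.0, limma voom 3.58.1, other scalings and filters, the 2 compared subsets alone, a replicate block and each library left out. Replicates were not sampling copies of each other. Chi-square over degrees of freedom was 10.7 to 24.2 between Anergic libraries and 2.28 to 8.10 between libraries of the other subsets. The model shares its estimate of the spread over all subsets. The fit was tested on simulated data with the same spread for all genes and subsets, so that test does not cover the larger spread between Anergic libraries. Some genes these rules select are not reported here.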

Additional observations from a re-analysis of the deposited data

How the results depend on the processing

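Of the 36 fold changes of the members, 300 of 315 values under other settings kept direction and side of the threshold, 10 lost the call, 2 gained it and 3 changed sign. Leaving out each library in turn kept 382 of 432, with 39 calls lost, 1 gained and 10 changes of sign. For Dgkz and Dgkd in Anergic against Teff, Treg and Naive cells, and for Dgka against Naive cells, every alternative run kept the call. The cause of the changes below was not tested.

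Scaled by total counts, the log2 fold change became -0.073 for Dgka in Anergic against Teff and 0.040 for Dgkz in Teff against Naive (neither called), -0.46 for Dgkh in Anergic against Treg (now called) and 0.21 for Dgkz in Treg against Teff (call lost). Dgkh in Anergic against Treg was also called at -0.33 with only the 2 subsets compared in the fit. With limma voom, Dgkg in Teff against Naive was -0.37 (not called). With DESeq2, the calls of Dgkg in Anergic against Treg (-1.08) and Dgkd in Treg against Teff (0.17) were lost. With DESeq2 size factors in edgeR, the calls of Dgkz in Treg against Naive (0.15) and against Teff (0.16) and of Dgkd in Treg against Teff (0.17) were lost, and with no filter the same calls were lost at 0.16, 0.17 and 0.17, leaving 3 members called in Treg against Teff under both. Without ribosomal and small RNA entries, Dgkd in Treg against Teff was 0.18 (call lost). The main fit called 29.1% of all genes in Treg against Teff.

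With the longest transcript as length, Dgka was 229 RPKM in Anergic, 262 in Treg, 225 in Teff and 416 in Naive, Dgkz 155, 113, 99.5 and 100.5, Dgkd 17.3, 31.2, 27.5 and 46.0, and Dgkg 0.435, 0.932, 0.0622 and 0.0575, each in that order, while Dgkh was 1.08 in Anergic, 1.36 in Treg and 1.16 in Teff. Scaled by total counts, Dgkz was 78.0 and Dgkd 27.0 RPKM in Treg, 0 regulators were called in Treg against Naive and 1 PDZ gene in Anergic against Treg.

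Leaving out 1 library gave log2 ranges that lost or gained a call or changed sign for 14 of these results. In Anergic against Teff they were -0.012 to 0.051 for Dgka and -0.21 to 0.12 for Dgke. In Anergic against Treg they were -0.23 to -0.16 for Dgka, -1.52 to -0.77 for Dgkg and -0.39 to -0.25 for Dgkh, with 3 to 5 members called. The main fit called 31% of all genes there, and the shares in these runs are not given here. In Anergic against Naive, Dgkh gave 0.34 to 0.71. In Treg against Naive, Dgkz gave 0.14 to 0.20 and Dgke -0.21 to 9.01e-05. In Teff against Naive, Dgkz gave -0.037 to 0.019 and Dgkg -0.32 to 0.65. In Treg against Teff, Dgka gave 0.18 to 0.25, Dgkz 0.14 to 0.19, Dgkd 0.15 to 0.20 and Dgke 0.30 to 0.63, with 2 to 5 members called. The members called always included Dgkg, whose difference there is fixed by the filter. For this comparison the main fit called 29.1% of all genes, so 2 of 6 members is near that share.

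The labels do not say whether replicate numbers pair the samples. Deviations of same-numbered libraries had a median correlation of 0.065 (-0.048 to 0.184 over 18 pairs, 4 over 0.1). For libraries with different numbers the median was -0.044 (-0.199 to 0.171 over 36 pairs, 1 over 0.1). Of the 12 libraries, 10 correlated best with their own number. Pairing was thus not settled, and the main model and the permutation tests treated the libraries as unpaired. A replicate block left every member's call in place, gave 3 members called in Anergic against Teff, and moved 1 list, with 2 other kinases, Dgki and Dgkq, called in Anergic against Naive. Low counts limit the precision of Dgkg, with 0 to 3 reads per Teff or Naive library.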
